A study of Mus musculus with 10 samples.

Results

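The genes described here encode the enzymes and carriers that move glucose through glycolysis, glycogen and the pentose phosphate path, apart from phosphofructokinase. They were chosen by name, as 35 of the 51826 genes listed in inguinal white adipose tissue (iWAT, the subcutaneous fat depot of the groin), and all 35 were found among the 33120 genes with an exon length. The libraries came from 10 male C57BL/6 mice in 4 groups. The F1 generation held 3 offspring of fathers fed a control diet (CD offspring) and 3 offspring of fathers fed a low-protein diet (LPD; pLPD offspring), all of them 5 weeks old and raised on the CD. The F0 generation held 2 males fed the CD and 2 males fed the LPD from weaning, at 10 to 12 weeks of age. According to the study, the F1 mice of a group had different mothers. The library codes in the labels share 1 stem within F1 and another within F0, and whether the libraries were made at different times is not given in the sources used here. Generation, age and library code cannot be told apart.

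Glucose that enters a cell is phosphorylated by a hexokinase and then follows 1 of several routes. Glycolysis splits it into trioses and ends in pyruvate, which lactate dehydrogenase turns into lactate. The pentose phosphate path yields NADPH for fatty acid synthesis as well as ribose, and its transketolase and transaldolase return carbon to glycolysis. Glycogen is built on glycogenin by glycogen synthase and the branching enzyme and is taken apart by glycogen phosphorylase. In fat cells these routes supply the glycerol backbone, the acetyl units and the NADPH of triglyceride synthesis.

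Between 6351075 and 10044546 exon reads were counted per library, and expression is given as counts per 1000000 (CPM) of the TMM-normalized library. The TMM factors came from the fit of each generation, so levels in F1 and F0 are not on 1 common scale. A level of 3 reads, below which a gene was not told from absent, came to 0.299 to 0.472 CPM, a floor for counting error only. In 9 of the 35 members, under 90% of the exon reads matched the gene alone, so their levels are less certain. The lowest shares were those of Eno1 (24.3%), Gapdh (30.4%), Pgk1 (34.8%), Pgam1 (39.4%) and Slc2a1 (53.8%). All 11 adipocyte markers were detected, with a summed level of 19597 to 30521 CPM led by Cfd. In F1, 36.0% to 37.5% of the reads on protein-coding genes lay in introns in CD offspring against 40.7% to 48.4% in pLPD offspring, the highest value being that of pLPD offspring 1. In F0 the share was 36.3% to 38.0%. The sum of 17 skeletal muscle markers was 212 to 573 CPM in F1 and 1946 to 6383 CPM in F0. In a bulk sample, fewer cells of a type and less RNA per cell cannot be told apart.

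Per kilobase of exon, the most abundant members in CD offspring were Aldoa, the aldolase that splits fructose 1,6-bisphosphate, at 654 CPM per kilobase, and Tkt, transketolase, at 435. The enolase gene Eno1 followed at 311, the transaldolase gene Taldo1 at 248, the lactate dehydrogenase subunit gene Ldha at 246, the pyruvate kinase gene Pkm at 224 and the liver form of glycogen phosphorylase, Pygl, at 195. At the other end stood Slc16a3, a lactate exporter, at 0.607, and Aldoc, a second aldolase, at 0.201. The order thus spanned more than 3 orders of magnitude from Aldoa to Aldoc, as the plot of levels per kilobase shows. In the F0 mice fed the CD the top of the order was again Aldoa (487) and Tkt (305), and Eno1 stood at 174.

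**Figure D1:**
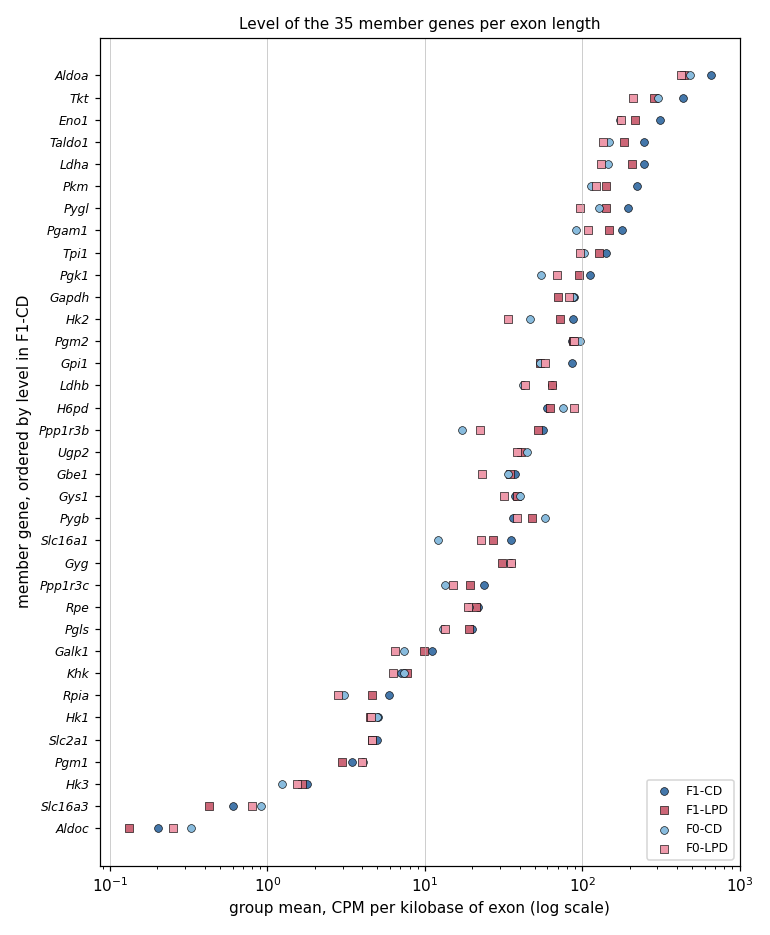
Group means of the 35 members in CPM per kilobase of exon on a log axis, ordered by the level in CD offspring, with circles for CD and squares for LPD groups. Aldoa and Tkt head the order in all 4 groups, and Aldoc and Slc16a3 close it.

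In several steps 1 isoform was dominant, given here as its share of the summed CPM per kilobase of a pair. Hk2, the insulin-responsive hexokinase, made up 94.0% to 95.1% of Hk1 and Hk2 together in CD offspring and 90.1% to 90.7% in F0 mice fed the CD. Hk2 was counted at 488, 473 and 610 CPM in CD offspring, 318, 484 and 491 in pLPD offspring, 303 and 255 in F0 mice on the CD and 220 and 182 in F0 mice on the LPD. Hk1, the widely expressed hexokinase, had 41.4, 43.2 and 44.7 CPM in CD offspring, 41.1, 34.3 and 38.8 in pLPD offspring, 47.4 and 37.4 in F0 mice on the CD and 39.8 and 37.9 on the LPD. Hk3, a hexokinase of myeloid cells, had 6.33, 8.34 and 4.84 CPM, then 3.68, 6.06 and 8.56, then 5.24 and 3.79, and 5.46 and 5.94 CPM in the same order of groups. Both F0 mice on the LPD lay below both on the CD in Hk2, with a log2 fold change of −0.47 (SE 0.13) that did not pass the test (adjusted p = 0.097).

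Aldoa held at least 99.9% of the Aldoa and Aldoc signal in each mouse, and Aldoc, at 1.48, 0.347 and 0.134 CPM in CD offspring, 0.461, 0.827 and 0 in pLPD offspring, 1.23 and 0.898 in F0 mice on the CD and 0.945 and 0.699 on the LPD, was the 1 member that did not pass the filter on low counts in either generation. Ldha, the subunit that favours lactate formation, made up 71.5% to 82.0% of Ldha and Ldhb in the 10 mice. It had 883, 894 and 669 CPM in CD offspring, 638, 676 and 737 in pLPD offspring, 485 and 475 in F0 mice on the CD and 463 and 401 on the LPD. Ldhb had 105, 92.9 and 102 CPM in CD offspring, 121, 84.5 and 95.0 in pLPD offspring, 69.5 and 63.1 in F0 mice on the CD and 75.0 and 60.3 on the LPD. Both F0 mice on the LPD lay below both on the CD in Ldha, as in 23.5% of all genes tested in F0. Its log2 fold change of −0.15 did not pass the test (adjusted p = 0.594). The groups of Ldhb overlapped in both generations. The gene listed as Pgm2 (ENSMUSG00000025791, on chromosome 4) held 95.4% to 97.8% of the pair of phosphoglucomutases, and had 257, 245 and 255 CPM in CD offspring, 237, 249 and 275 in pLPD offspring, 268 and 296 in F0 mice on the CD and 261 and 255 on the LPD. The gene listed as Pgm1 (ENSMUSG00000029171, on chromosome 5) had 8.76, 8.46 and 9.67 CPM, then 6.76, 10.6 and 5.60, then 10.0 and 11.0, and 9.87 and 10.8 CPM in the same order. These symbols follow the files, and the GENCODE vM21 annotation gives the symbols of the pair the other way round. Slc16a1, the lactate and pyruvate carrier MCT1, held 89.4% to 98.9% of the Slc16a1 and Slc16a3 signal. Slc16a3 had 3.37, 2.55 and 3.76 CPM in CD offspring, 3.22, 1.24 and 2.34 in pLPD offspring, 3.23 and 6.38 in F0 mice on the CD and 5.36 and 3.15 on the LPD, with overlapping groups in both generations.

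In F1, 3 of the 34 members tested fell in pLPD offspring and 0 rose, at an adjusted p under 0.05 in edgeR's quasi-likelihood test. Over all 14049 genes tested, 1.02% were called lower and 0.142% higher. The 3 members were Gpi1, Eno1 and Pkm, all of the glycolytic chain from glucose 6-phosphate to pyruvate. At an unadjusted p under 0.05, 11 members were lower and 1 was higher in pLPD offspring, against 8.76% and 6.57% of all genes tested. In 9 members every pLPD offspring lay below every CD offspring and in 1 member above, where 10.3% and 9.78% of all genes did so. The log2 fold change was negative in 28 members and positive in 6, with a median of −0.21 and quartiles of −0.39 and −0.06, beside a median of 0.0074 over all genes tested. The summed level of the 35 members was 15550, 15588 and 12895 CPM in CD offspring and 10455, 10708 and 11808 CPM in pLPD offspring.

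**Figure D2:**
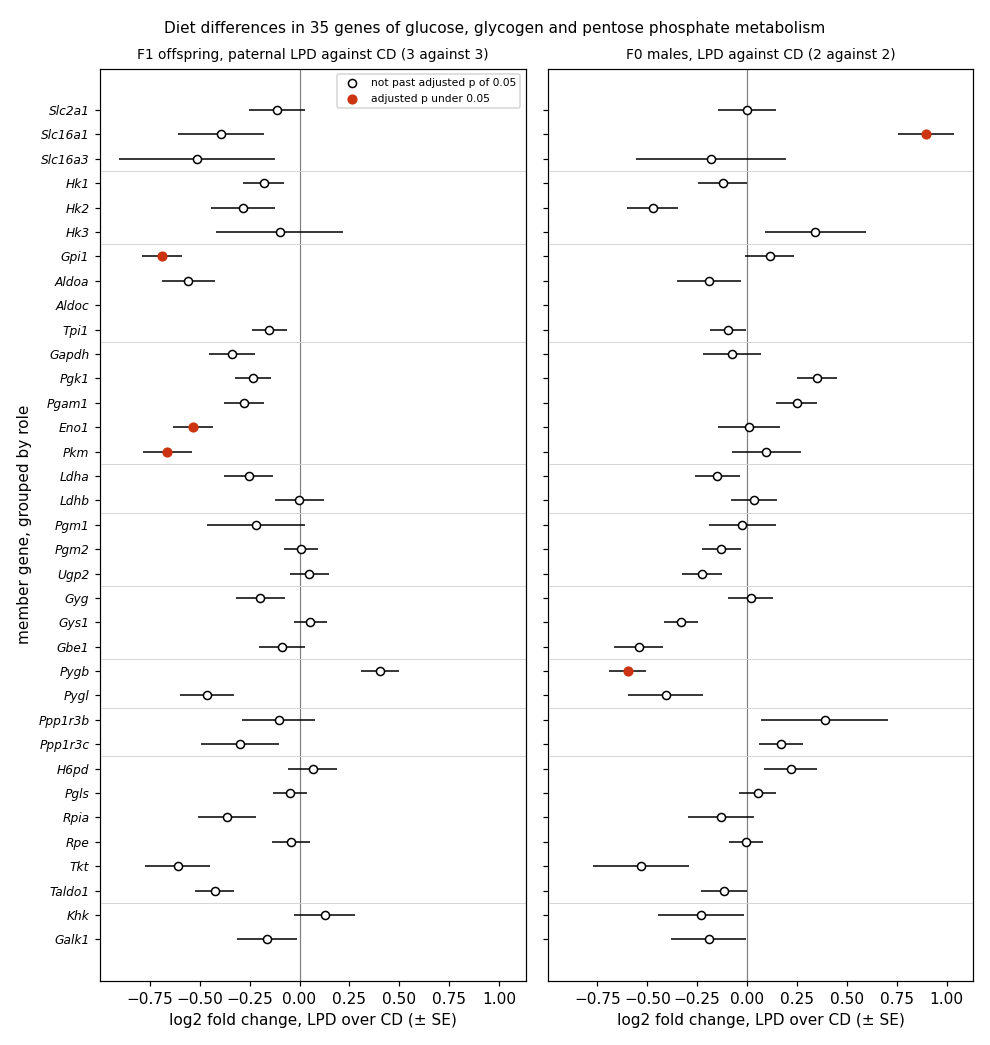
Log2 fold change of LPD over CD (± SE) for each member, grouped by role, in the F1 offspring (left) and the F0 males (right), with filled points for an adjusted p under 0.05. In F1 all 13 tested members from hexokinase to lactate dehydrogenase lie left of 0, and in F0 they lie on both sides.

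Gpi1 (ENSMUSG00000036427, chromosome 7 from 34201330 to 34230336, minus strand), glucose 6-phosphate isomerase, had 584, 584 and 500 CPM in CD offspring and 368, 316 and 352 CPM in pLPD offspring, summed over its exons. The groups did not overlap, and the log2 fold change was −0.69 (SE 0.10, adjusted p = 0.0114), a fall of 37.9%. In F0 the values were 340 and 351 CPM on the CD and 414 and 334 CPM on the LPD, which overlap. A gene on the other strand, Gm26762, overlaps Gpi1, and whether reads were counted by strand is not given in the sources used here.

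Eno1 (ENSMUSG00000063524, chromosome 4 from 150236721 to 150248879, plus strand), an enolase that makes phosphoenolpyruvate, was counted at 1743, 1744 and 1539 CPM in CD offspring and 1158, 1093 and 1225 CPM in pLPD offspring. Its log2 fold change was −0.53 (SE 0.10, adjusted p = 0.0371). Of its exon reads, 24.3% matched Eno1 alone, so its level is uncertain, while the uniquely matching reads gave −0.52 (adjusted p = 0.0232). In F0 the gene was at 919 and 956 CPM on the CD and 1082 and 805 CPM on the LPD, with the CD mice lying between the LPD mice.

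Pkm (ENSMUSG00000032294, chromosome 9 from 59656368 to 59679375, plus strand), the pyruvate kinase of most tissues outside the liver, was at 1206, 1242 and 913 CPM in CD offspring and 749, 674 and 702 CPM in pLPD offspring. The lowest CD offspring stayed above the highest pLPD offspring, and the log2 fold change was −0.66 (SE 0.12, adjusted p = 0.0338). Of its reads, 78.0% matched Pkm alone. F0 mice had 580 and 558 CPM on the CD and 726 and 489 CPM on the LPD.

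The call of Gpi1 was lost without CD offspring 1 (adjusted p = 0.0719), CD offspring 2 (0.0786) or pLPD offspring 2 (0.0801). That of Eno1 was lost without CD offspring 1 (0.159), CD offspring 2 (0.195), pLPD offspring 1 (0.0781) or pLPD offspring 2 (0.17), and that of Pkm without CD offspring 1 (0.152), CD offspring 2 (0.168), pLPD offspring 1 (0.068), pLPD offspring 2 (0.17) or pLPD offspring 3 (0.0644). CD offspring 3 had the lowest level of the CD offspring in each of the 3 genes. Without it, 8 members were called lower, beside 370 of all 14322 genes tested. With a covariate for the exon share of the reads, 0 members were called in F1, beside 10 lower and 1 higher over all genes. The log2 fold changes of Gpi1, Eno1 and Pkm were then −0.78 (adjusted p = 0.156), −0.50 (0.412) and −0.73 (0.35). This share did not overlap between CD and pLPD offspring, so it and the paternal diet cannot be told apart in this fit.

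The other members of the glycolytic chain did not pass the threshold in F1. Aldoa was at 2692, 2679 and 2014 CPM in CD offspring and 1687, 1517 and 1814 CPM in pLPD offspring, a log2 difference of −0.56 (SE 0.13, adjusted p = 0.069). Its groups did not overlap either. Pgk1, phosphoglycerate kinase, lay at 259, 253 and 240 CPM against 232, 197 and 212 CPM (−0.23, adjusted p = 0.237), and Hk1 was also lower in each pLPD offspring (−0.18, adjusted p = 0.443). The log2 fold changes of Tpi1, Gapdh, Pgam1, Ldha, Ldhb, Hk2 and Hk3 ranged from −0.34 to −0.0013, and their groups overlapped. From hexokinase to lactate dehydrogenase, all 13 tested members had a negative sign, with a median of −0.28. Uptake and lactate transport showed overlapping groups, with −0.11 for the glucose transporter Slc2a1 and −0.39 for Slc16a1.

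In the pentose phosphate path 5 of 6 members had a negative sign in F1 and 0 passed the threshold. Tkt was at 3154, 3191 and 2187 CPM in CD offspring and 1559, 1869 and 2161 CPM in pLPD offspring (−0.61 on the log2 scale, SE 0.16, adjusted p = 0.101). The lowest CD offspring and the highest pLPD offspring nearly touched. Taldo1 separated more clearly, with 572, 558 and 488 CPM against 403, 373 and 428 CPM (−0.43, SE 0.098, adjusted p = 0.0628). Rpia, the ribose 5-phosphate isomerase, had −0.36 with overlapping groups. Rpe, which interconverts ribulose and xylulose 5-phosphate, and Pgls, the lactonase, were at −0.04 and −0.05. H6pd, which starts the path in the endoplasmic reticulum, was at 281, 289 and 369 CPM in CD offspring and 289, 327 and 366 CPM in pLPD offspring (0.066).

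Glycogen genes took both signs in F1, 6 negative and 4 positive among 10 tested, with 0 past the threshold. Pygb, the brain form of glycogen phosphorylase, lay at 166, 164 and 193 CPM in CD offspring and 214, 231 and 246 CPM in pLPD offspring (log2 fold change 0.40, SE 0.095, adjusted p = 0.0683). It was the 1 member that was higher in every pLPD offspring, and it passed the threshold in 4 of 8 alternative fits. Pygl, the liver form of the same enzyme, was at 793, 861 and 590 CPM in CD offspring and 493, 553 and 580 CPM in pLPD offspring (−0.46, SE 0.14, adjusted p = 0.126). The Pygl share of the pair was 79.3% to 86.8% in CD offspring and 74.4% to 75.0% in pLPD offspring. That these ranges did not overlap follows from Pygl being lower and Pygb higher in every pLPD offspring.

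Ppp1r3b, a subunit that brings protein phosphatase to glycogen, was at 337, 290 and 424 CPM in CD offspring and 234, 394 and 350 CPM in pLPD offspring, and its relative Ppp1r3c at 57.8, 49.9 and 87.4 CPM against 41.3, 61.3 and 55.7 CPM. Both pairs of groups overlapped. Gys1 (glycogen synthase), Gbe1 (the branching enzyme), Gyg (glycogenin), Ugp2 (which makes UDP-glucose), Pgm1 and Pgm2 lay between −0.22 and 0.053. Khk, which phosphorylates fructose, was at 12.7, 12.6 and 12.5 CPM in CD offspring and 12.6, 13.1 and 15.6 CPM in pLPD offspring (0.13), and Galk1, which phosphorylates galactose, was at −0.16.

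In F0, Slc16a1 rose and Pygb fell with the LPD, and the other 32 members tested did not pass the threshold. Over all 14581 genes tested, 1.18% were called higher and 1.32% lower. At an unadjusted p under 0.05, 4 members were lower and 3 higher, against 8.20% and 7.53% of all genes. Both LPD mice lay below both CD mice in 11 members and above them in 5, where 23.5% and 23.0% of all genes tested did so. The median log2 fold change of the members was −0.09, with 21 negative and 13 positive, beside 0.0004 over all genes. Without the 2nd F0 mouse on the LPD, which had the lowest summed level of the members (7774 CPM against 9873 to 10192 CPM in the other F0 mice), the median was 0.01.

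Slc16a1 (ENSMUSG00000032902, chromosome 3 from 104638668 to 104658462, plus strand) had 62.8 and 44.8 CPM in F0 mice on the CD and 97.2 and 103 CPM in those on the LPD. Its log2 fold change was 0.90 (SE 0.14, adjusted p = 0.0189), a rise of 86.0%. The call was lost without the 2nd LPD mouse (adjusted p = 0.0743), with reads on the whole gene (0.76, adjusted p = 0.0674) and with all 4 groups in 1 fit (0.89, adjusted p = 0.157). In F1 the gene was at 175, 169 and 124 CPM in CD offspring and 171, 96.8 and 88.9 CPM in pLPD offspring (−0.39, adjusted p = 0.421). Of 7 brown adipocyte markers, 5 rose in F0 as well, and the sum of the 7 was 270 and 144 CPM on the CD against 757 and 643 CPM on the LPD. Ppargc1a, from the same list, had the other sign (−0.40), with both LPD mice below both CD mice, and did not pass the threshold. Ucp1, the defining uncoupling protein of brown and beige fat cells, was at 58.3 and 13.5 CPM against 238 and 289 CPM. In F1 the sum was 1537, 1178 and 1749 CPM in CD offspring and 2280, 760 and 838 CPM in pLPD offspring, so pLPD offspring 1 was high in both Slc16a1 and the list. The part of these cells in the Slc16a1 values was not tested.

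Pygb (ENSMUSG00000033059, chromosome 2 from 150786735 to 150831758, plus strand) had 272 and 291 CPM in F0 mice on the CD and 189 and 182 CPM on the LPD, a log2 fold change of −0.60 (SE 0.094, adjusted p = 0.0189). The call was lost without the 2nd CD mouse (adjusted p = 0.0978) or the 2nd LPD mouse (0.064). Skeletal muscle markers moved the same way, with a negative log2 fold change in all 17, 10 of them past the threshold, and sums of 4080 and 6383 CPM on the CD against 2673 and 1946 CPM on the LPD. The list was led by Ttn, the giant sarcomere protein titin. In F1, where Pygb had the opposite sign, the muscle sums were 349, 430 and 573 CPM in CD offspring and 542, 212 and 462 CPM in pLPD offspring. The part of muscle in the Pygb values was not tested.

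**Figure D3:**
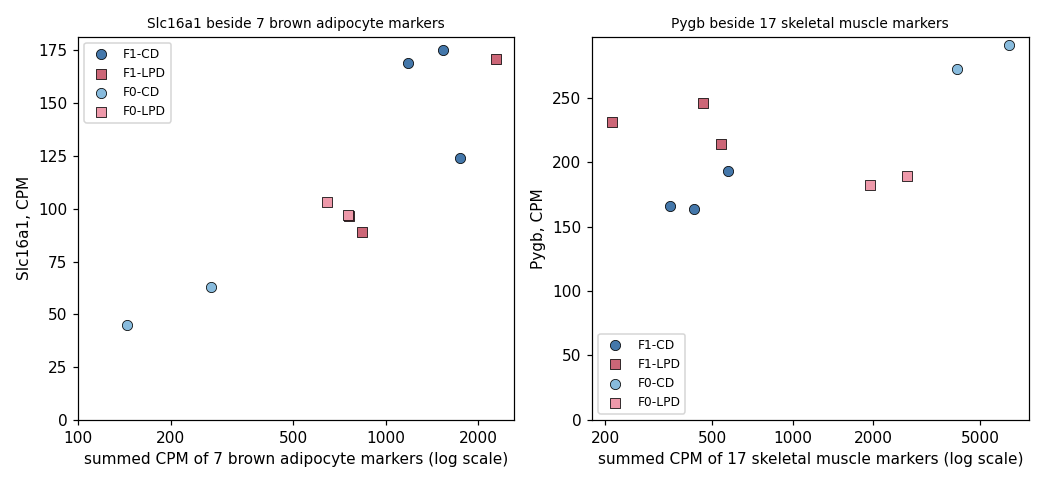
Left, Slc16a1 (CPM) against the summed CPM of 7 brown adipocyte markers on a log axis, and right, Pygb (CPM) against the summed CPM of 17 skeletal muscle markers, 1 point per mouse (on the left, pLPD offspring 2 lies under an F0 mouse on the LPD). The 2 F0 mice on the CD have the lowest brown marker sums and the lowest Slc16a1, and the highest muscle marker sums and the highest Pygb. The levels were normalized within each generation, which limits a ranking across generations.

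Of the 10 glycogen genes, Pygb included, 7 had a negative sign in F0 and 6 had both LPD mice below both CD mice, where 49.9% and 23.5% of all genes tested did. Gbe1 was at 169 and 193 CPM on the CD and 138 and 110 CPM on the LPD (log2 fold change −0.54, SE 0.12, adjusted p = 0.0587). Gys1 was at 191 and 194 CPM against 156 and 150 CPM (−0.33, adjusted p = 0.0937), and Pygl at 491 and 492 CPM against 455 and 285 CPM (−0.41, adjusted p = 0.346). Leaving out 1 LPD mouse moved both Gbe1 and Pygl. Without the 1st, Gbe1 was at −0.71 (adjusted p = 0.0221) and Pygl at −0.79 (0.00963), and without the 2nd Gbe1 was at −0.40 (0.239) and Pygl at −0.11 (0.79). The targeting subunits had the other sign, with Ppp1r3b at 144 and 69 CPM against 174 and 104 CPM (0.39, overlapping) and Ppp1r3c at 36.8 and 36.1 CPM against 44.6 and 37.2 CPM (0.17). None of these genes other than Pygb passed the threshold.

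Glycolysis in F0 had 6 negative and 7 positive signs among 13 members, with a median of 0.01 and 0 calls. Pgk1 was at 126 and 119 CPM on the CD and 168 and 144 CPM on the LPD (0.35, SE 0.10, adjusted p = 0.122), and Pgam1, phosphoglycerate mutase, had 0.25 (adjusted p = 0.291), both without overlap. Only 34.8% of the exon reads of Pgk1 and 39.4% of those of Pgam1 matched the gene alone. Hk3 had 0.34 at 3.79 to 5.94 CPM. In the pentose phosphate path Tkt was at 1929 and 2062 CPM on the CD and 1777 and 983 CPM on the LPD (−0.53, SE 0.24, adjusted p = 0.334), where the spread between the LPD mice exceeded the difference between the groups. Without the 1st LPD mouse Tkt was at −1.02 (adjusted p = 0.00351) and without the 2nd at −0.17 (0.643). H6pd lay at 376 and 418 CPM against 409 and 515 CPM.

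**Figure D4:**
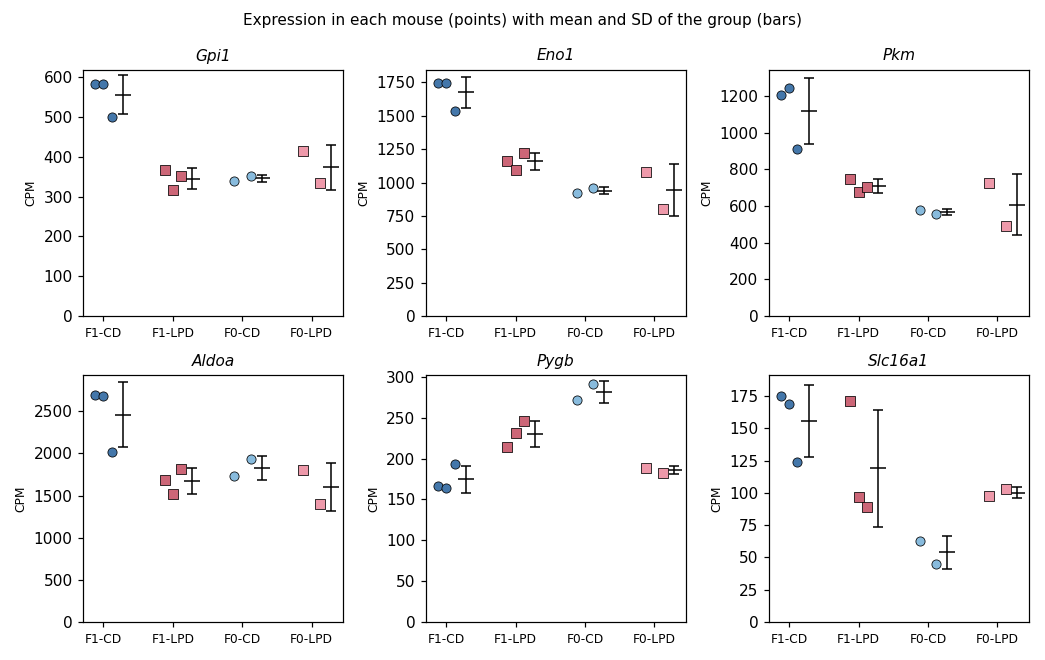
Expression of 6 members in each mouse (points, CPM) with the mean and SD of each group beside them. Gpi1, Eno1, Pkm and Aldoa are lower in every pLPD offspring than in every CD offspring, and Pygb is higher in every pLPD offspring and lower in both F0 mice on the LPD.

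The promoters of the called members are shown because 2 kinds of motif linked to glucose genes could be looked for in them: the E-box CACGTG, bound by MYC, USF and, as a pair 5 bases apart, by the carbohydrate response factor ChREBP, and ACGTG, the core of the hypoxia response element, which lies inside the E-box as well. Windows of 250 bases before to 50 bases after the start were taken from RefSeq (GRCm38.p6, the assembly called mm10) and are printed 5′ to 3′ on the strand of the gene, with ACGTG and its reverse complement CACGT in capitals. The windows shown lie at chr7:34230287-34230586 (minus strand) for Gpi1, chr4:150236974-150237273 for Eno1, chr9:59656977-59657276 for Pkm, chr2:150786546-150786845 for Pygb and chr3:104638414-104638713 for Slc16a1, the last 4 on the plus strand. For Eno1 and Pkm they are 1 of several windows listed.
Gpi1: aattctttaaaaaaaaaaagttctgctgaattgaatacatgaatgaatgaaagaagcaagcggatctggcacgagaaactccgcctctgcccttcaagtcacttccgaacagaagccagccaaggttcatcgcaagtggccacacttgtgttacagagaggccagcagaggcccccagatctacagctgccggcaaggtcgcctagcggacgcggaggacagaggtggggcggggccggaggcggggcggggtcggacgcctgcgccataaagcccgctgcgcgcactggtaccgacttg
Eno1: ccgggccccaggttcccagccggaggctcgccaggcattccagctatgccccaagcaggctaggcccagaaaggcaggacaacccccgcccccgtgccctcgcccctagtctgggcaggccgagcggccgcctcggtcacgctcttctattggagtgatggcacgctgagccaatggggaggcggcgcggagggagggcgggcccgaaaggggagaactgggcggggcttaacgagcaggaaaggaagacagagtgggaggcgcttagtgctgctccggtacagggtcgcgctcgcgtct
Pkm: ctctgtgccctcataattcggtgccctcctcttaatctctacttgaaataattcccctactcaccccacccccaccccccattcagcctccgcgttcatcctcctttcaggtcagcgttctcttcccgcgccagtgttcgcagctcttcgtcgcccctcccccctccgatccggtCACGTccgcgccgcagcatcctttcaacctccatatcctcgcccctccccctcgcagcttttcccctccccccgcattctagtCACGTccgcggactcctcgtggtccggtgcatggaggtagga
Pygb: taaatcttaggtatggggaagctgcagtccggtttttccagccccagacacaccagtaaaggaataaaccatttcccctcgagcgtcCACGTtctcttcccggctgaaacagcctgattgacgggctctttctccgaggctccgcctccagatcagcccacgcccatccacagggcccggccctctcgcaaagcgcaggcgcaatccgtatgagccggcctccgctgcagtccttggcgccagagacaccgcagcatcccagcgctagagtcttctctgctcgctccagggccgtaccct
Slc16a1: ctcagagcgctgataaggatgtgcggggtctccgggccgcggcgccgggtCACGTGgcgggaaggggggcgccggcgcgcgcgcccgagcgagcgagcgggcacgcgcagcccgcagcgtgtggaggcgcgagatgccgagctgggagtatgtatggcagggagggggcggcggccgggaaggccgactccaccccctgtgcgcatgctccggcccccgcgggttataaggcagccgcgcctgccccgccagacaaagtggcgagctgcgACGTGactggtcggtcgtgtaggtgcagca
Neither Gpi1 nor Eno1 held ACGTG in any window listed, Pkm held it in 1 window on the reverse strand, Pygb held it on the reverse strand, and Slc16a1 held a whole E-box and a further ACGTG.

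Of the 35 members, 34 matched a RefSeq entry (43 windows), Ppp1r3b being the exception. On either strand, ACGTG was found in 22 members (64.7%) against 21.8% of 27025 genes, and per window in 53.5% against 19.6% of 32851 windows. The E-box was found in 6 members (17.6%, against 8.09% of genes), namely Slc16a1, Ldha, Gyg, Ppp1r3c, Khk and Galk1. A pair of exact E-boxes 5 bases apart was found in 0 members, against 0.0% of 27025 genes. A pattern this rare cannot tell the members from other genes. According to the study, elements bound by ChREBP may hold E-box-like sequences instead, and these were not searched for. ACGTG and the E-box both hold a CpG, and the members' windows held a median of 22 CpG against 7 over all windows. The part of CpG content in these shares was not tested. A match of letters is not a bound site, and no match says nothing of the factor.

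Whether the diet effect differed between F1 and F0 was tested by an interaction term in a fit of all 10 mice, which held all 35 members. The diet effect of Gpi1 was lower in F1 than in F0, by a log2 difference of −0.81 (SE 0.16, adjusted p = 0.0344), and that of Pygb was higher, by 0.99 (SE 0.14, adjusted p = 0.00851). Over the 15111 genes tested, 0.893% were called lower and 0.357% higher in F1. The interaction of Slc16a1 was −1.30 (SE 0.34, adjusted p = 0.0914) and that of Pgk1 −0.59 (SE 0.14, adjusted p = 0.0613). Neither passed the threshold, nor did Pkm (−0.76, adjusted p = 0.138) or Eno1 (−0.55, adjusted p = 0.183). Of the 34 members tested in both generations, 16 had a negative sign in both, 1 a positive sign in both, 12 were negative in F1 and positive in F0, and 5 the reverse.

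The Gpi1 interaction was lost without F0 mouse 1 on the CD (adjusted p = 0.111), mouse 2 on the CD (0.161), mouse 1 on the LPD (0.107), CD offspring 1 (0.0858), CD offspring 2 (0.0886), pLPD offspring 2 (0.0907) or pLPD offspring 3 (0.0569). That of Pygb was lost without F0 mouse 2 on the CD (0.0596) and passed without each of the other 9 mice.

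**Figure D5:**
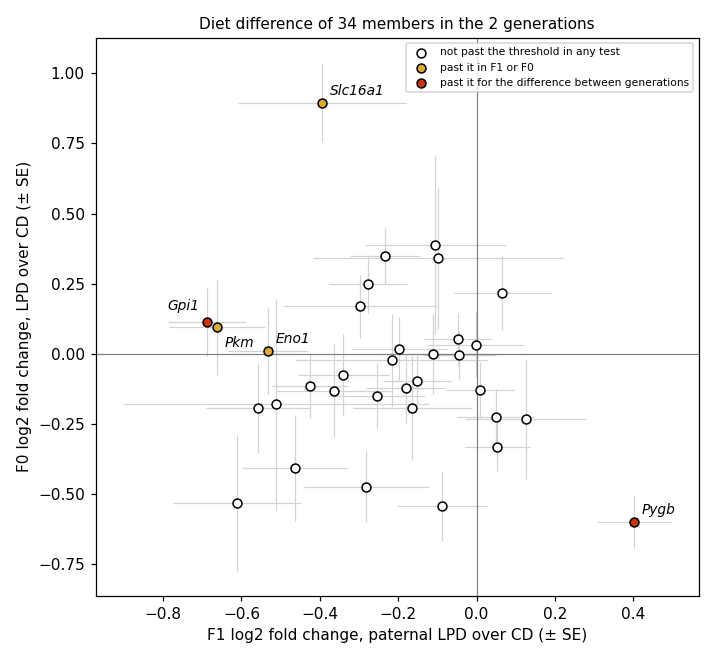
F0 against F1 log2 fold change (± SE) of the 34 members tested in both generations, coloured by the test passed. Gpi1 and Pygb, past the threshold for the difference between generations, lie on opposite sides, and Slc16a1 stands highest in F0.

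Among 61 other genes of the same paths, 50 were tested in F1, of which 1 rose and 2 fell, beside 0.142% and 1.02% of all genes tested, with 24 negative and 26 positive signs and a median log2 fold change of 0.0095. Slc2a5, a fructose transporter, fell from 83.5, 84.4 and 44.3 CPM to 23.5, 26.6 and 33.0 CPM (log2 fold change −1.36, SE 0.22, adjusted p = 0.0196). Gfpt2, which diverts fructose 6-phosphate to hexosamines, was at 38.5, 44.0 and 52.2 CPM against 23.3, 24.8 and 33.0 CPM (−0.73, SE 0.15, adjusted p = 0.0466). The gene that rose was Slc16a7, the monocarboxylate carrier MCT2, from 43.9, 41.9 and 55.7 CPM to 66.6, 78.0 and 80.5 CPM (0.67, SE 0.12, adjusted p = 0.0313).

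These 3 calls were lost without CD offspring 1 (adjusted p = 0.0947 to 0.152), CD offspring 2 (0.095 to 0.168) or pLPD offspring 2 (0.115 to 0.198). Those of Slc2a5 (0.0774) and Gfpt2 (0.134) were also lost without pLPD offspring 1, and that of Slc16a7 (0.0662) without pLPD offspring 3. With reads on the whole gene, Slc16a7 was at 0.38 (0.0683) and Gfpt2 at −0.64 (0.0704). The exon share covariate brought Slc2a5 to −0.95 (adjusted p = 0.52), Gfpt2 to −0.44 (0.668) and Slc16a7 to 0.85 (0.191).

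In F0, 51 of these genes were tested, 1 rose and 1 fell, beside 1.18% and 1.32% of all genes tested. Pygm, the muscle form of glycogen phosphorylase, was at 70.6 and 106 CPM on the CD and 53.2 and 39.5 CPM on the LPD (−0.93, SE 0.19, adjusted p = 0.0464), beside the skeletal muscle sums above, and the part of muscle was not tested. Prps1, which makes phosphoribosyl pyrophosphate from ribose 5-phosphate, was at 39.4 and 46.9 CPM against 68.8 and 107 CPM (1.02, SE 0.19, adjusted p = 0.0313). The call of Pygm was lost without the 2nd CD mouse (0.13) or the 2nd LPD mouse (0.205), and that of Prps1 without the 1st CD mouse (0.105) or the 2nd LPD mouse (0.0648). Both were lost with reads on the whole gene (Pygm 0.0729, Prps1 0.0684) and with all 4 groups in 1 fit (0.0851 and 0.0793). For the difference between generations, Slc16a7 was higher in F1 (0.93, SE 0.17, adjusted p = 0.0216) and G6pdx, the first enzyme of the pentose phosphate path in the cytosol, was lower (−0.96, SE 0.21, adjusted p = 0.0454). G6pdx was at 261, 271 and 190 CPM in CD offspring, 161, 159 and 196 CPM in pLPD offspring, 179 and 197 CPM in F0 mice on the CD and 238 and 279 CPM in those on the LPD. The interaction of Slc16a7 was lost without F0 mouse 2 on the CD (0.139), either F0 mouse on the LPD (0.0573 and 0.0965), CD offspring 1 (0.0631), CD offspring 2 (0.0525) or pLPD offspring 2 (0.0597), and with reads on the whole gene, at 0.53 (0.0685). That of G6pdx was lost without any 1 of the 4 F0 mice (0.0539 to 0.216), CD offspring 1 (0.111), CD offspring 2 (0.105), pLPD offspring 1 (0.0647) or pLPD offspring 2 (0.111), and with reads on the whole gene (0.0575).

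Markers of other cells moved with the F1 groups as well. Of 7 myeloid markers tested 4 fell, with sums of 954, 1045 and 1167 CPM in CD offspring and 674, 746 and 779 CPM in pLPD offspring, led by Lyz2. Stromal progenitor markers had 0 of 7 past the threshold but sums of 9726, 11465 and 6404 CPM against 4575, 5518 and 5169 CPM. Most of each sum was the collagen gene Col1a1, at 8805, 10362 and 5283 CPM against 3754, 4601 and 4199 CPM (log2 fold change −0.96). The rest of the list ranged from −0.41 to −0.12. Of 4 epithelial markers tested 2 fell (Krt18 and Krt8), with sums of 10.5 to 14.9 CPM against 1.54 to 4.96 CPM, and the milk protein gene Csn2 was at 0 in all mice. For adipocyte, endothelial, lymphocyte and erythroid markers 0 passed the threshold in F1. Of the 7 brown adipocyte markers 1 rose (Ppargc1a, log2 fold change 1.05), while 5 had a negative sign and the median was −0.32. In F0, 1 marker each fell among adipocyte, myeloid and stromal progenitor markers and 1 lymphocyte marker rose. The part of these cells in the F1 values of the members was not tested.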

How the data were processed

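Total RNA of iWAT from 10 mice was depleted of rRNA and sequenced in pairs of 36 bases on a NextSeq500, and alignment to mm10 was done by the authors with CLC Genomics Workbench. The deposited counts give, per gene, the reads on exons, on uniquely matching exons, on introns and on the whole gene, with no normalization. The annotation release and a strand setting are not given in the sources used here.

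Total exon reads were tested in R 4.3.3 with edgeR 4.0.16 (filterByExpr, TMM, quasi-likelihood F test, two-sided), separately in F1 and F0, with Benjamini-Hochberg adjustment over all genes tested and a threshold of 0.05. The interaction was fitted in all 10 mice. SE is the log2 fold change divided by the square root of F. The test was also run on simulated data, in well-counted genes with changes larger than those of the called members. That run does not measure how well smaller changes are called. Members, gene lists and tests were chosen with earlier results of these data known, and 1 gene of the list of other genes is not reported here. Values in every mouse are given for members past a threshold, for the 3 with the largest change per direction and generation at a mean of at least 1 CPM, and for isoform pairs; further values printed for Aldoa, Taldo1, Pgk1, Gys1, Gbe1 and Pygl were chosen after their values were seen. Alternatives were DESeq2 1.42.0, its size factors, no filter, unique exon reads, whole gene reads, 1 fit of all groups, the replicate number as a block, an exon share covariate and each mouse left out. That mice of a group were separate animals is from the study, and p-values measure the spread between these mice. In F1 the diet was given to the fathers, and which father each offspring had is not given in the sources used here. The F1 p-values therefore measure the spread between offspring, which may differ from that between fathers.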

Additional observations from a re-analysis of the deposited data

Results flagged for a closer look

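The F1 diet difference of Gpi1 minus that in F0 was −0.81 on the log2 scale (adjusted p = 0.0344 in edgeR's quasi-likelihood test of the interaction), from −0.69 in F1 and 0.11 in F0. All 3 pLPD offspring lay below all 3 CD offspring, and the F0 groups overlapped.

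For Pygb the same quantity was 0.99 (adjusted p = 0.00851), from 0.40 in F1 and −0.60 in F0, with all 3 pLPD offspring above the CD offspring and both F0 mice on the LPD below both on the CD. Generation, age and library code cannot be told apart in either gene.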

How the results depend on the processing

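The number of members called lower in F1, 3, became 7 with DESeq2, 8 with no filter and 0 with the exon share covariate, and 0 to 8 with 1 mouse left out. The number called higher, 0, became 1 (Pygb) with DESeq2, no filter, all groups in 1 fit or the replicate block, and was 0 to 1 with 1 mouse left out. The median of −0.21 moved to −0.11 with the covariate. In F0 the number lower, 1, became 2 with DESeq2 and 6 with no filter or the replicate block. The number higher, 1, became 3 with no filter or the block and 0 with whole gene reads or all groups in 1 fit. Both F0 numbers also changed with 1 mouse left out, in fits with 1 mouse in a group. So did those over all genes. The F0 median ranged from −0.16 to 0.01, reversed without the 2nd LPD mouse. For the difference between generations, the number lower in F1, 1, became 3 with DESeq2, 7 with no filter, 2 with whole gene reads and 2 with the block, and was 0 to 4 with 1 mouse left out, and the number higher was 0 to 1. Gpi1, Eno1 and Pkm kept their F1 calls in 7 of 8 alternatives, all but the covariate. The block also brought the Slc16a1 interaction (−1.35, adjusted p = 0.0176) and F0 Tkt (−0.59, 0.00771) and Pygl (−0.45, 0.00706) past it, and took the G6pdx interaction out (−0.95, 0.0567). Whether mice that share a replicate number were linked in any way is not given in the sources used here. The correlation of their deviations was 0.009 to 0.074 in F1 and 0.056 in F0. With 1 pair of mice per number, this cannot decide the question. Over all genes, 144 were called lower in F1, against 301 with DESeq2, 564 with no filter and 10 with the covariate. With 1 F1 mouse left out, 17 to 370 were lower and 1 to 140 higher. Higher in F1 were 20, against 74 with DESeq2, 234 with no filter, 62 with all groups in 1 fit and 48 with the block. In F0, 192 were lower, against 186 with DESeq2, 710 with no filter and 735 with the block. Higher in F0 were 172, against 633 with no filter, 656 with the block, 125 with whole gene reads and 110 in 1 fit. For the interaction, 135 were lower, against 243 with DESeq2, 576 with no filter, 126 with whole gene reads and 184 with the block.

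Some members that were not called changed sign, and the cause was not tested. In F1 these were Hk2 0.20, Hk3 0.86, Gbe1 0.11, Ppp1r3b 0.37, Ppp1r3c 0.020, Pgls 0.015, Rpe 0.16 with the covariate, Ldhb 0.014, Gys1 −0.0013, Gbe1 0.24, Rpe 0.038 with whole gene reads, Ldhb 0.0002 with unique reads and Pgm2 −0.0004 with all groups in 1 fit. In F0 they were Slc2a1 0.19, Eno1 −0.049, Rpe 0.027 with unique reads, Slc2a1 0.11, Pgm1 0.11 with whole gene reads, Slc2a1 0.0017 with no filter and Eno1 −0.0053 with the block. With 1 mouse left out, the log2 fold changes that changed sign ranged in F1 as Hk3 −0.42 to 0.16, Ldhb −0.16 to 0.11, Pgm2 −0.060 to 0.056, Ugp2 −0.011 to 0.14, Gys1 −0.0003 to 0.11, Ppp1r3b −0.26 to 0.086, H6pd −0.029 to 0.20, Rpe −0.098 to 0.026, and in F0 as Slc2a1 −0.12 to 0.10, Slc16a3 −0.62 to 0.40, Hk1 −0.29 to 0.055, Gpi1 −0.052 to 0.26, Gapdh −0.33 to 0.14, Eno1 −0.22 to 0.20, Pkm −0.22 to 0.35, Ldhb −0.14 to 0.18, Pgm1 −0.093 to 0.043, Gyg −0.16 to 0.17, Ppp1r3b −0.052 to 1.01, Pgls −0.0012 to 0.10, Rpia −0.32 to 0.074, Rpe −0.045 to 0.030, Taldo1 −0.26 to 0.012, Khk −0.58 to 0.032. The numbers of mice, 3 and 2 a group, limit which differences could be called.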
